A study of Mus musculus with 12 samples.

Results

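The 31 genes described here make or regulate cholesterol and fatty acids, and were taken by gene symbol from the 27179 genes of the deposited count table. All 31 symbols were found, and all 31 genes were among the 14903 expressed well enough to be tested. They comprise 3 regulators, 16 enzymes that turn acetyl-CoA into cholesterol, 1 sterol carrier and 11 genes that supply, build, desaturate or lengthen fatty acids. RNA came from luminal and basal mammary epithelial cells of female mice, with 3 libraries in each of 4 groups: luminal knockout, luminal control, basal knockout and basal control. The knockouts had the strain label MMTV-cre/Foxp1(fl/fl), in which the mouse mammary tumour virus promoter drives Cre and both Foxp1 alleles are floxed. The controls had the strain label Foxp1(fl/fl), which names the same floxed alleles and no Cre. No treatment was given, per the labels, and the sources used here do not give the ages of the mice or how the 2 cell types were separated. Foxp1 is a forkhead transcription factor, and the design asks how its loss changes RNA levels in each cell type.

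Cholesterol and fatty acids are both built from acetyl-CoA in the cytosol. The SREBP transcription factors, encoded by Srebf1 and Srebf2, leave the endoplasmic reticulum when sterols are low and switch on most of these enzymes, while the INSIG proteins hold them back. SREBP1 is known mainly for fatty acid genes and SREBP2 mainly for cholesterol genes. In the mammary gland, lipid synthesis is best known from lactation, when luminal cells make milk fat.

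Total counts were 9769361 to 11133908 in 11 libraries and 15449513 in luminal knockout replicate 3. Levels are CPM, counts scaled to a common library size with TMM factors. Foxp1 itself was not lower in the knockout-labelled libraries. It had 161, 149.8 and 155 CPM in luminal knockouts, against 82.3, 62.0 and 78.2 CPM in luminal controls, a log2 fold change of 1.07 (SE 0.19, edgeR adjusted p = 0.0161). It had 212, 193 and 284 CPM in basal knockouts, against 221, 213 and 159.7 CPM in basal controls (log2 fold change 0.22, SE 0.19, edgeR adjusted p = 0.926). These counts are per gene and cannot separate reads over a deleted part from reads outside it. The loss of Foxp1 was therefore not tested, nor was the cause of the higher luminal counts. The knockout groups are named by their labels throughout. The 7 luminal markers, Krt8 among them, summed to 13143 to 18847 CPM in luminal knockouts and 9533 to 14855 CPM in luminal controls, against 1452 to 2490 CPM in basal knockouts and 1223 to 1597 CPM in basal controls. The 7 basal markers, Krt14 and Acta2 among them, summed to 306 to 732 CPM in luminal knockouts and 122 to 674 CPM in luminal controls, against 14560 to 19783 CPM in basal knockouts and 16149 to 17403 CPM in basal controls.

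Promoter sequences are shown for 4 enzymes: Hmgcs1, which held the only SREBP-type motif found among the members, and Cyp51, Tm7sf2 and Fasn, whose RNA levels differed between luminal and basal cells in both genotypes. They were chosen after the values were seen. The RefSeq promoter table of GRCm38.p6 held 24 of the 31 members, each window running from 250 bases before the start of a transcript to 50 bases after it. Hmgcs1 (condenses acetyl-CoA units to HMG-CoA) is at chr13:119690101-119690400 on the plus strand. Cyp51 (removes a methyl group from lanosterol) is at chr5:4104648-4104947 on the minus strand. Tm7sf2 (a sterol reductase that acts on the Cyp51 product) is at chr19:6067801-6068100 on the minus strand, and Fasn (fatty acid synthase) is at chr11:120824498-120824797 on the minus strand. The Fasn window lies wholly within the RefSeq span of the gene, chr11:120805958-120825166, so it is not at the outermost start. The same holds for Acaca (chr11:84129635-84401651), which is not shown but enters the motif shares. Each sequence runs 5′ to 3′ along the gene. Capitals mark CCAAT, the core motif bound by NF-Y, on either strand (ATTGG on the other), and in Hmgcs1 also the SREBP-type motif TCACNCCAC.
Hmgcs1: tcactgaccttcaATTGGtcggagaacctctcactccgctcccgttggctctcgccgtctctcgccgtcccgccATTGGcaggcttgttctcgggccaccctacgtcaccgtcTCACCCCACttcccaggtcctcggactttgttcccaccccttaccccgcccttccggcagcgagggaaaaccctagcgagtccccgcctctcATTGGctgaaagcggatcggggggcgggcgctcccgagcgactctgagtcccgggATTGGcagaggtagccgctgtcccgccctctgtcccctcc
Cyp51: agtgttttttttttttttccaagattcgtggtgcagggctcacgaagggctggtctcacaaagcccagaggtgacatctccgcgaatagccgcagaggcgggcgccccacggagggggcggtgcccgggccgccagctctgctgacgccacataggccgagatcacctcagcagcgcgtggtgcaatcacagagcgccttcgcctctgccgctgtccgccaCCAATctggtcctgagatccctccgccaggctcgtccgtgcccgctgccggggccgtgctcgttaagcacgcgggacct
Tm7sf2: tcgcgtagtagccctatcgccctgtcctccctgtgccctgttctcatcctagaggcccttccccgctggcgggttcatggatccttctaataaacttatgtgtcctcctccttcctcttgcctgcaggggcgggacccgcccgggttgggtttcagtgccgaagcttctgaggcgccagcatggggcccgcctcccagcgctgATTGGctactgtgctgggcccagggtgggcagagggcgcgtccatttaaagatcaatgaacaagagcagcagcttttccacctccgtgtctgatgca
Fasn: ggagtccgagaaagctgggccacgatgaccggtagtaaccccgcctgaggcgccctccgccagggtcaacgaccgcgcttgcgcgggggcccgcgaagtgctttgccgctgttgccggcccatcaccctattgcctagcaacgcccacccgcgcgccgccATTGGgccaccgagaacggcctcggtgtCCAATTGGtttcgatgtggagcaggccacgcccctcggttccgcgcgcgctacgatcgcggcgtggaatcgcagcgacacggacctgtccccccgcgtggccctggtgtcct
The SREBP-type motif, searched on both strands, was found in 1 of 24 member genes, 137 bases before the Hmgcs1 start, and in 1.24% of all 32851 promoters in the table. CCAAT or its complement was found in 21 of 24 member genes, or 87.5%, against 42.5% of the tested genes with a promoter and 37.41% of all promoters. In Fasn a CCAAT overlapped its own complement, so that the run CCAATTGG holds the motif on both strands. The GC box GGGCGG was found in 79.2% of the member genes, against 66.8% of the tested genes and 35.66% of all promoters. The E-box CACGTG was found in 20.8% of the member genes, against 11.4% of the tested genes and 7.15% of all promoters. These matches are letters in a window and are not measured binding. Each search took exact matches to 1 pattern, so SREBP sites of any other sequence were not looked for.

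In levels per gene length, the most abundant RNAs belonged to both pathways, and their order differed between the groups. On the RPKM scale (CPM per kilobase of the gene length in the deposited table), Scd1 led in luminal knockouts at 95.9 ± 17.6 RPKM and in luminal controls at 70.5 ± 33.3 RPKM (SD, n = 3 each). Scd1 encodes the main stearoyl-CoA desaturase, which makes oleate from stearate. Acly, which releases acetyl-CoA from citrate in the cytosol, led in basal knockouts at 71.6 ± 18.3 RPKM and in basal controls at 74.4 RPKM. Behind Scd1 came Hmgcs1 at 62.8 RPKM and Sqle at 57.9 RPKM in luminal knockouts, and Fads2 at 67.9 RPKM and Acly at 54.9 RPKM in luminal controls. Behind Acly came Hmgcs1 at 57.2 RPKM and Sqle at 47.1 RPKM in basal knockouts, and Sqle at 68.8 RPKM and Hmgcs1 at 61.4 RPKM in basal controls. Among the first 5 genes of each group, the ranges of neighbours overlapped except those of Scd1 and Hmgcs1 in luminal knockouts. Srebf2 was the flattest member, with group means that differed by at most 1.07-fold, and Scd1 varied most, by 8.22-fold between luminal knockouts and basal controls. Luminal knockouts had the highest mean of the 4 groups for 14 members, luminal controls for 3, basal knockouts for 5 and basal controls for 9.

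**Figure D1:**
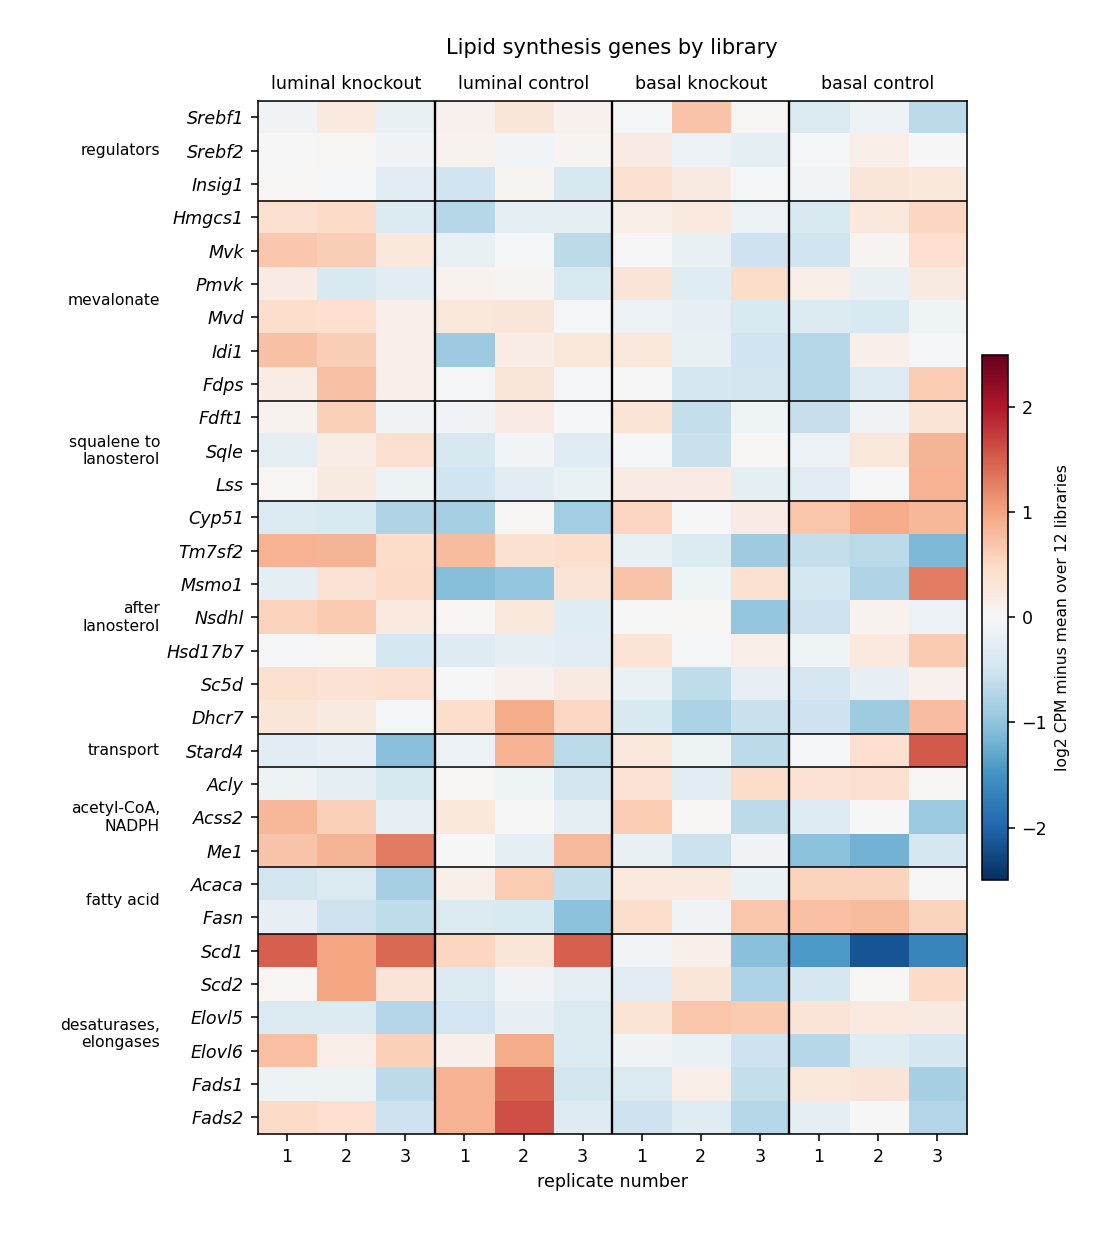
Level of each of the 31 genes (rows, by role) in each of the 12 libraries (columns, by group and replicate), as log2 CPM minus the gene's mean over the 12 libraries. Scd1 is high in all 6 luminal libraries and lowest in the 3 basal controls, and most cholesterol enzymes are high in basal control replicate 3.

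In luminal cells, knockout against control, 0 of the 31 members passed an adjusted p of 0.05, against 3.03% of all tested genes (451 genes), by edgeR's quasi-likelihood test with Benjamini-Hochberg adjustment. At an unadjusted p under 0.05 there were 5 members, Mvk, Me1, Acaca, Scd2 and Fads1, against 17.2% of all tested genes. Of the 16 cholesterol enzymes, 14 had a log2 fold change above 0, with a median of 0.28, against 47.4% of all tested genes above 0 and a median of -0.03. The fatty acid genes were divided, with 6 of 11 above 0 and a median of 0.11. Single libraries decided the size and sign of that median, which was -0.05 without luminal control replicate 3, 0.21 without luminal control replicate 2 and 0.0013 without luminal knockout replicate 1. The groups did not overlap for 5 members, against 25.4% of all tested genes. Mvk, Lss, Sc5d and Scd2 lay higher in every knockout library, and Dhcr7 lay lower.

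Among the regulators in luminal cells, Insig1 had the lowest p. It had 41.9, 39.7 and 34.5 CPM in luminal knockouts, against 29.3, 43.5 and 31.1 CPM in luminal controls (log2 fold change 0.16, SE 0.19, edgeR adjusted p = 0.732). The groups overlapped, with 1 control library above all the knockouts. Srebf1 had a log2 fold change of -0.18 and Srebf2 one of -0.05.

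In the mevalonate steps, Mvk, the kinase that phosphorylates mevalonate, had 15.2, 14.6 and 11.3 CPM in luminal knockouts, against 8.23, 9.16 and 5.93 CPM in luminal controls. All 3 knockout libraries lay above all 3 controls. The log2 fold change was 0.81 (SE 0.28, edgeR adjusted p = 0.156), which missed the threshold. Hmgcs1 had a log2 fold change of 0.60, Idi1 (isomerises isopentenyl diphosphate) 0.58, Fdps (makes farnesyl diphosphate) 0.29, Mvd (makes isopentenyl diphosphate) 0.14 and Pmvk (phosphorylates mevalonate phosphate) -0.07.

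From squalene to lanosterol, Sqle, the squalene epoxidase, had 122, 165 and 191 CPM in luminal knockouts, against 109, 138 and 117 CPM in luminal controls (log2 fold change 0.39, SE 0.27, edgeR adjusted p = 0.503). Knockout replicates 2 and 3 were above every control and replicate 1 was not. Lss, which closes the sterol rings, had a log2 fold change of 0.36 and Fdft1, the squalene synthase, one of 0.20. After lanosterol, Nsdhl, a sterol dehydrogenase, had 22.7, 23.98 and 18.1 CPM in luminal knockouts, against 15.7, 18.6 and 12.3 CPM in luminal controls (log2 fold change 0.47, SE 0.28, edgeR adjusted p = 0.433). Knockout replicate 3 alone lay within the control range. Dhcr7, which catalyses the last step to cholesterol in one branch of the pathway, went the other way, with 17.9, 16.8 and 13.9 CPM in luminal knockouts, against 19.6, 27.6 and 20.6 CPM in luminal controls (log2 fold change -0.48, SE 0.36, edgeR adjusted p = 0.554). The groups did not overlap. Stard4, a carrier that moves cholesterol between membranes, had 6.48, 6.71 and 3.67 CPM in luminal knockouts, against 7.02, 14.4 and 4.83 CPM in luminal controls (log2 fold change -0.65, SE 0.50, edgeR adjusted p = 0.56). These groups overlapped, and control replicate 2 stood above the other 5 libraries.

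Among the genes that supply acetyl-CoA and NADPH, Me1, the cytosolic malic enzyme, had 89.8, 98.5 and 135 CPM in luminal knockouts, against 54.3, 46.4 and 96.3 CPM in luminal controls (log2 fold change 0.72, SE 0.29, edgeR adjusted p = 0.233). Replicate 3 was the highest in both groups. For synthesis itself, Acaca, the acetyl-CoA carboxylase that commits carbon to fatty acids, had 24.3, 26.0 and 18.6 CPM in luminal knockouts, against 37.0, 52.1 and 22.0 CPM in luminal controls (log2 fold change -0.69, SE 0.29, edgeR adjusted p = 0.246). The groups overlapped through control replicate 3 alone. Fasn, the next enzyme, had a log2 fold change of 0.11.

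Among desaturases, Fads1, which acts late in the making of arachidonate, had 78.2, 78.2 and 54.2 CPM in luminal knockouts, against 155, 239 and 61.5 CPM in luminal controls. Control replicates 1 and 2 lay above every knockout library and control replicate 3 did not. The log2 fold change was -1.12 (SE 0.44, edgeR adjusted p = 0.213), and without luminal control replicate 3 it was -1.46 with an adjusted p of 0.0436, past the threshold. Fads2, its neighbour on chromosome 19 and the first desaturase of that route, followed the same libraries, with 76.0, 72.3 and 37.6 CPM in luminal knockouts, against 98.5, 165 and 43.1 CPM in luminal controls (log2 fold change -0.73, SE 0.41, edgeR adjusted p = 0.408). Scd2, a second stearoyl-CoA desaturase, had 82.0, 157 and 99.8 CPM in luminal knockouts, against 61.5, 74.4 and 67.8 CPM in luminal controls (log2 fold change 0.73, SE 0.31, edgeR adjusted p = 0.256). The lowest Scd2 knockout library was above the highest control. Scd1 had 524, 366 and 501 CPM in luminal knockouts, against 269.6, 228 and 525 CPM in luminal controls (log2 fold change 0.44, SE 0.36, edgeR adjusted p = 0.587), and control replicate 3 was above every knockout library. Scd1 and Scd2 are paralogues, and the sources used here do not say how reads that match both were counted.

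Luminal libraries with the same replicate number were taken as pairs, though the labels do not say what a number shares. Their deviations from the group mean correlated at r = 0.356, 0.301 and 0.535 across genes. A fit to the luminal libraries alone took the replicate number as a block. In it, 3 members were called higher in luminal knockouts and none lower. Of all tested genes, 9.15% were called in either direction (1364 genes) and 6.01% were called higher. The 3 were Mvk at 0.84 (edgeR adjusted p = 0.039), Me1 at 0.78 (adjusted p = 0.0317) and Scd2 at 0.70 (adjusted p = 0.047) on the log2 scale. The milk gene list, which includes the caseins, summed to 503 to 804 CPM in luminal knockouts and 1121 to 1537 CPM in luminal controls, and its part in these differences was not tested. Of that list, the caseins Csn2 and Csn1s1 were lower in luminal knockouts, at log2 fold changes of -5.47 and -6.10. Other markers moved with the same comparison. Of the 7 basal markers, 3 had a log2 fold change above 0 in luminal knockouts, and the median was -0.41, with a lowest value of -2.17. Only 1 was called, Trp63, a basal transcription factor gene, which was higher (log2 fold change 2.80, edgeR adjusted p = 0.0253). The summed basal markers of the groups overlapped. Of the 8 salivary genes tested, 3 were higher (Prol1, Prp2 and Prh1) and 1 was lower (Smr3a, log2 fold change -9.47, edgeR adjusted p = 0.00321). The 4 endothelial markers had a median log2 fold change of -1.74 with 3 at an unadjusted p under 0.05 and 0 called, and summed to 9.18 to 19.8 CPM in luminal knockouts and 13.8 to 83.5 CPM in luminal controls. The part of these lists was not tested either. Adipoq, the adipocyte hormone, had 0 counts in all 6 luminal libraries, and the 8 adipocyte markers summed to 5.98 to 18.3 CPM in luminal knockouts and 11.7 to 78.8 CPM in luminal controls, most of it Fabp4. In bulk libraries such as these, fewer cells of a type and less RNA per cell cannot be told apart.

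**Figure D2:**
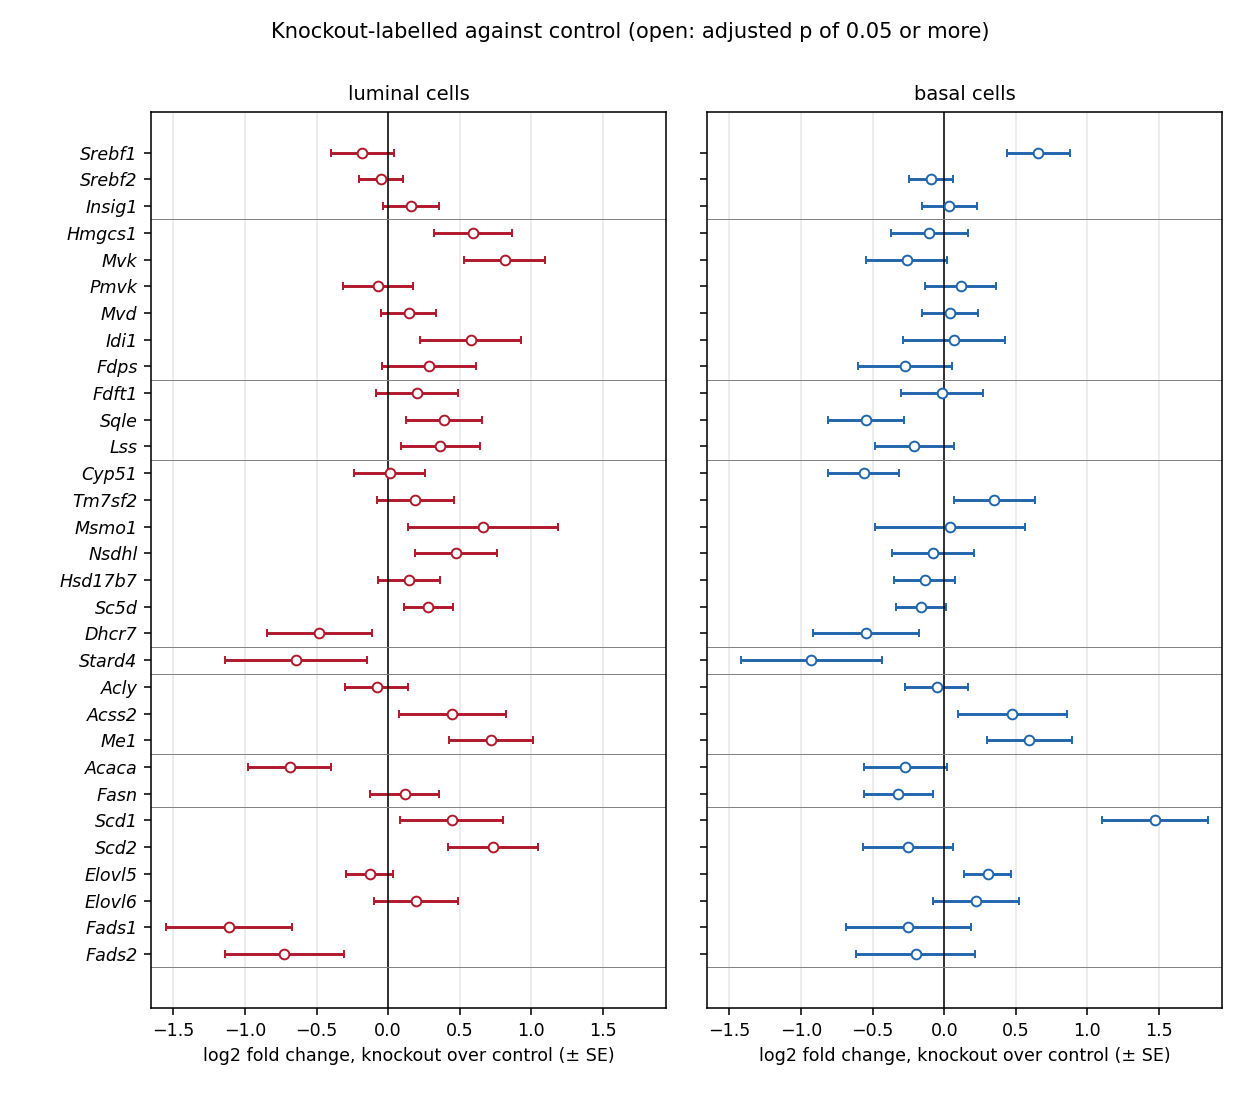
Log2 fold change of knockout over control with its SE for the 31 genes, in luminal cells (left) and basal cells (right), in order of role; open points did not pass an edgeR adjusted p of 0.05. All points are open, the luminal cholesterol enzymes lie mostly right of 0 with a median of 0.28, and basal Scd1 stands farthest out at 1.47.

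In basal cells, knockout against control, 0 of the 31 members passed the threshold, against 0.671% of all tested genes (100 genes, edgeR). At an unadjusted p under 0.05 there were 3 members, Scd1, Srebf1 and Cyp51, against 8.88% of all tested genes. The cholesterol enzymes had a median log2 fold change of -0.12 with 5 of 16 above 0, and the fatty acid genes one of -0.05 with 5 of 11 above 0, against a median of -0.01 and 48.8% above 0 for all tested genes. The fatty acid median was 0.14 without basal knockout replicate 2, -0.15 without basal knockout replicate 1 and 0.01 without basal control replicate 2, and so had no stable sign. The groups did not overlap for 4 members, against 12.4% of all tested genes: Srebf1, Scd1 and Elovl5 lay higher in every knockout library and Cyp51 lower.

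Scd1 had the lowest p of the members in basal cells. It had 177, 202 and 90.3 CPM in basal knockouts, against 68.3, 41.7 and 59.2 CPM in basal controls. Every knockout library was above every control, and the means were 156 ± 58.6 CPM in knockouts and 56.4 ± 13.5 CPM in controls (SD, n = 3 each). The log2 fold change was 1.47 (SE 0.37, 95% interval 0.66 to 2.28, edgeR adjusted p = 0.118), which missed the threshold; DESeq2 called it, with an adjusted p of 0.00872, and called 2.80% of all tested genes. The 6 fibroblast markers, Pdgfra and Col1a1 among them, summed to 1367 to 2241 CPM in basal knockouts and 375 to 470 CPM in basal controls. They had a median log2 fold change of 2.46, with 2 called, against 0.671% of all tested genes. All 6 lay higher in every knockout library, where the groups did not overlap for 12.4% of all tested genes. Their part in the differences of Scd1 and the other members in basal cells was not tested. The 7 luminal markers summed to 1452 to 2490 CPM in basal knockouts and 1223 to 1597 CPM in basal controls. They had a median log2 fold change of 0.47 in basal knockouts, with 4 at an unadjusted p under 0.05 and 0 called. Krt19 had 262, 199.6 and 149 CPM in basal knockouts, against 74.2, 45.6 and 83.5 CPM in basal controls (log2 fold change 1.59, SE 0.32, edgeR adjusted p = 0.0501). Cldn3 had a log2 fold change of 0.93, Krt18 one of 0.88 and Elf5 one of -1.24, and the groups did not overlap for 3 of the 7, all higher. Of the 8 salivary genes tested, 7 had an unadjusted p under 0.05 in basal cells and 1 was called, Smr3a, which was lower in basal knockouts (log2 fold change -5.89, edgeR adjusted p = 0.0312). The part of the luminal markers and the salivary genes in the differences of Scd1 and the other members was not tested. Adipoq had at most 3 counts in any basal library. The 8 adipocyte markers summed to 48.3 to 108 CPM in basal knockouts and 24.4 to 76.4 CPM in basal controls.

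Srebf1 had 152, 255 and 159.7 CPM in basal knockouts, against 121, 140.3 and 98.2 CPM in basal controls (log2 fold change 0.66, SE 0.22, edgeR adjusted p = 0.285). The lowest knockout library was above the highest control. Elovl5, an elongase of polyunsaturated fatty acids, had 44.98, 57.9 and 56.3 CPM in basal knockouts, against 44.7, 42.5 and 41.8 CPM in basal controls (log2 fold change 0.30, SE 0.16, edgeR adjusted p = 0.688). Its first knockout library lay close to the highest control. Me1 had 47.9, 37.8 and 51.5 CPM in basal knockouts, against 26.8, 23.9 and 40.3 CPM in basal controls (log2 fold change 0.59, SE 0.30, edgeR adjusted p = 0.637). The groups overlapped through control replicate 3. Fasn had 412, 287 and 492 CPM in basal knockouts, against 511, 529 and 448 CPM in basal controls (log2 fold change -0.32, SE 0.24, edgeR adjusted p = 0.891).

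Cyp51 had 177, 121 and 140.1 CPM in basal knockouts, against 197, 233 and 217 CPM in basal controls (log2 fold change -0.56, SE 0.25, edgeR adjusted p = 0.52). It was the only cholesterol enzyme of the 16 whose basal groups did not overlap. Sqle had 142, 98.5 and 148 CPM in basal knockouts, against 130.0, 175 and 262 CPM in basal controls (log2 fold change -0.55, SE 0.27, edgeR adjusted p = 0.613). Mvk had 9.52, 8.24 and 6.52 CPM in basal knockouts, against 6.64, 9.92 and 12.6 CPM in basal controls (log2 fold change -0.26, SE 0.28, edgeR adjusted p = 0.961). In both genes the groups overlapped, and control replicate 3 was the highest of the 6 libraries. Stard4 had 9.52, 7.08 and 4.89 CPM in basal knockouts, against 7.57, 10.5 and 22.9 CPM in basal controls (log2 fold change -0.93, SE 0.49, edgeR adjusted p = 0.679), again with control replicate 3 far above the rest.

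The sign of the cholesterol list in basal cells rested on basal control replicate 3. It was the highest of the 3 basal controls for 12 of the 16 cholesterol enzymes, against 39.6% of all tested genes. The median deviation of these enzymes from their group mean, on the log2 scale, was -0.42, -0.03 and 0.39 in basal control replicates 1, 2 and 3. Without replicate 3 the basal cholesterol median was 0.13, with 11 of 16 above 0, in place of -0.12 with 5 of 16. Leaving out basal control replicate 1 or basal knockout replicate 1 gave -0.31 and -0.26, and leaving out basal knockout replicate 3 gave -0.06. Among the single genes, Msmo1, a sterol methyl oxidase, had 48.2, 38.7 and 159.6 CPM in the basal controls, and Dhcr7 had 9.96, 7.68 and 24.7 CPM.

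**Figure D3:**
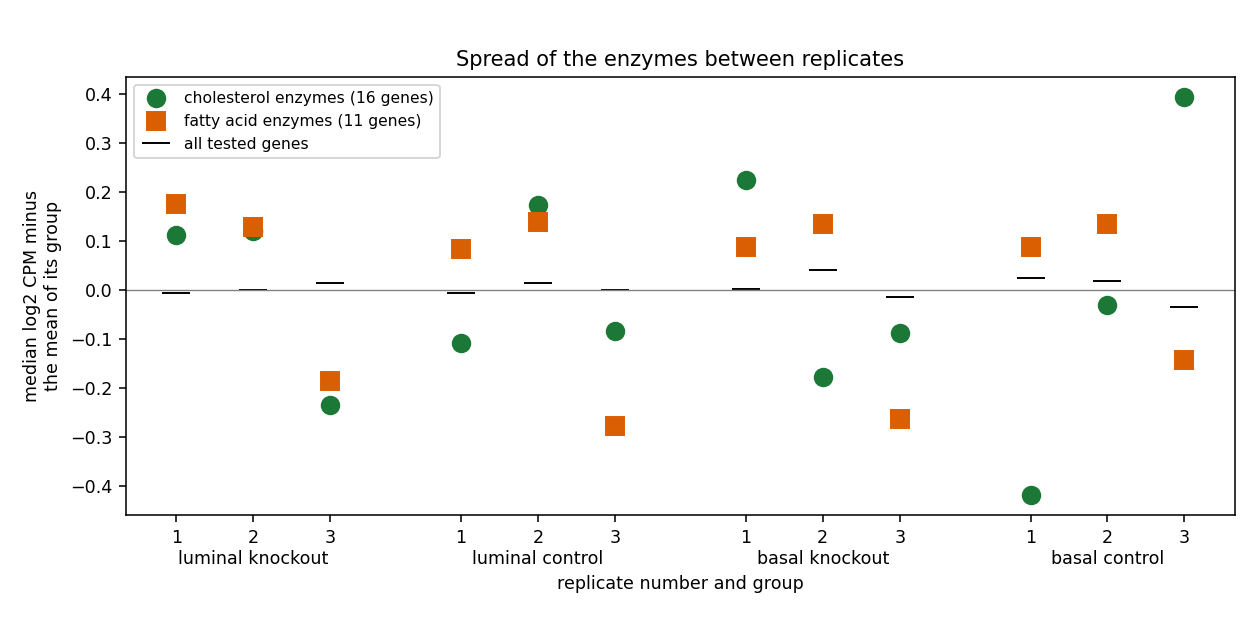
Median log2 CPM minus the group mean, in each of the 12 libraries, over the 16 cholesterol enzymes (circles), the 11 fatty acid genes (squares) and all tested genes (bars). The cholesterol enzymes are spread widest in basal controls, from -0.42 to 0.39, and the fatty acid genes are lowest in replicate 3 of every group.

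**Figure D4:**
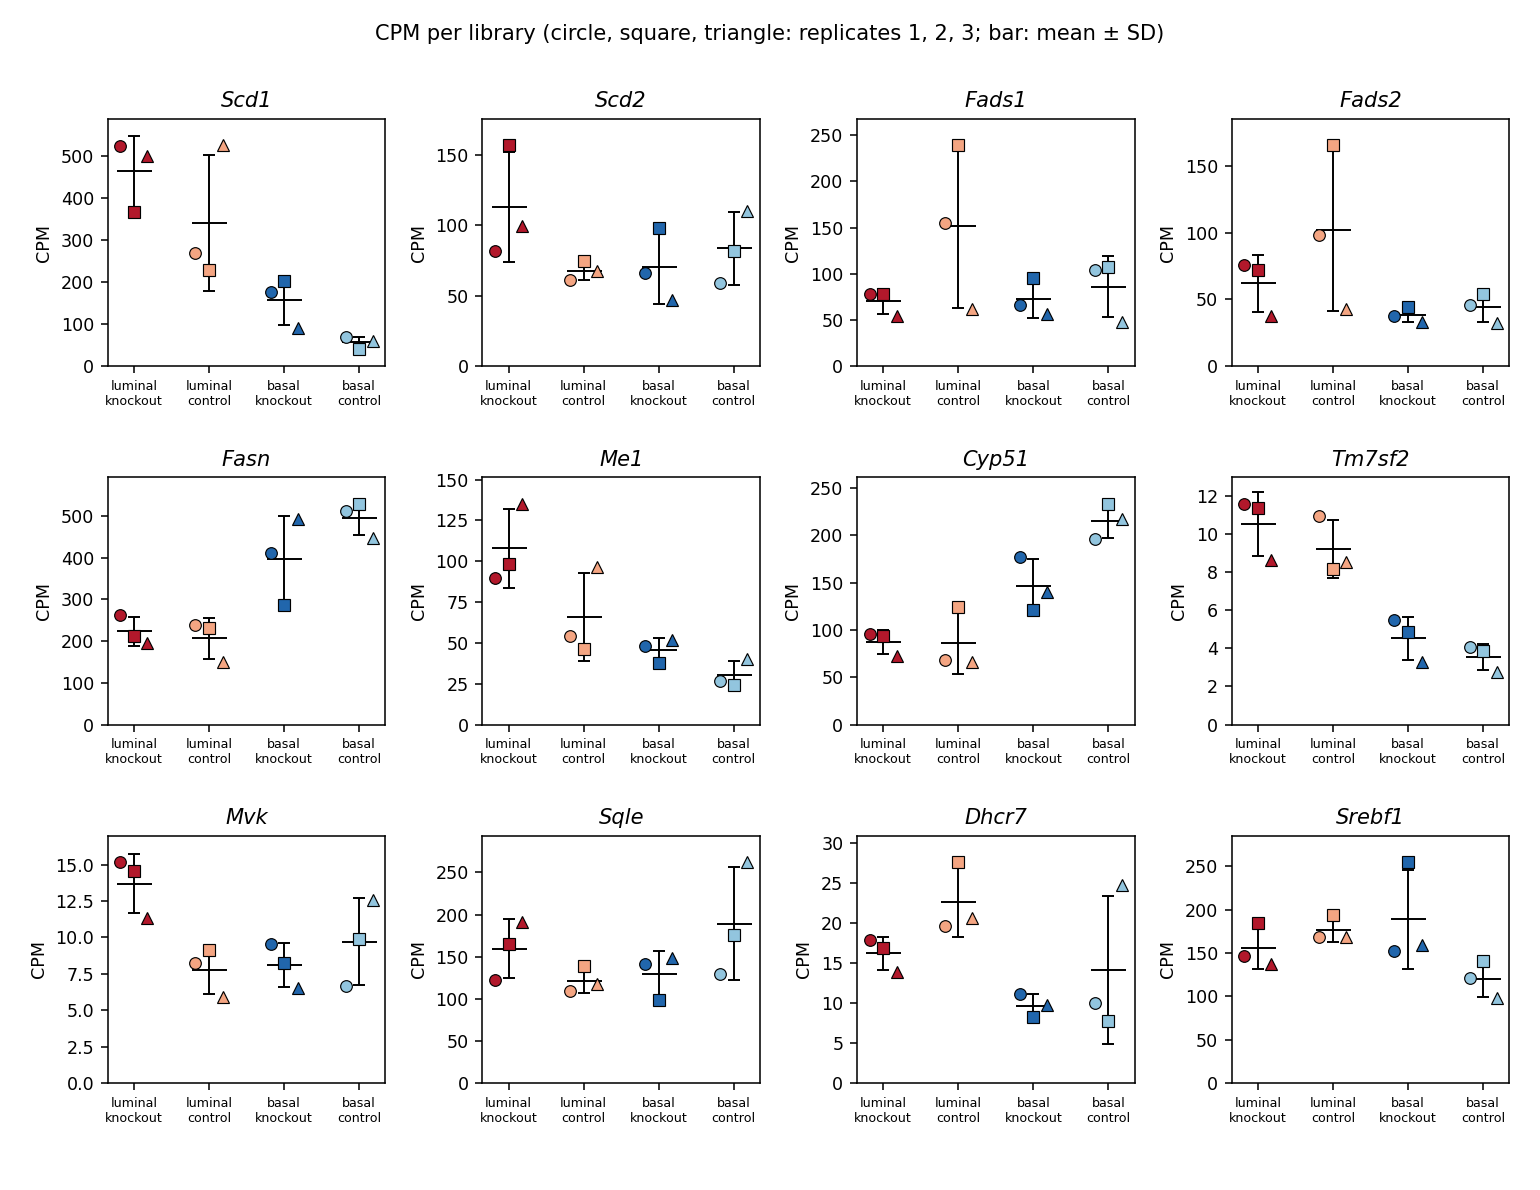
CPM of 12 genes in each of the 12 libraries (y axes start at 0; circle, square and triangle are replicates 1, 2 and 3; bars are mean ± SD, n = 3), ordered luminal knockout, luminal control, basal knockout, basal control. Scd1 is at 90.3 CPM or more in basal knockouts and at 68.3 CPM or less in basal controls, and Fads1 and Fads2 are high in 2 of 3 luminal controls.

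The knockout-against-control difference was tested between the cell types as the luminal effect minus the basal effect. None of the 31 members passed (0 of 31, against 0.275% of all tested genes, 41 genes, edgeR), and 4 had an unadjusted p under 0.05, against 9.84% of all tested genes. These were Mvk at 1.08 (SE 0.40, edgeR adjusted p = 0.366), Srebf1 at -0.84 (SE 0.31, adjusted p = 0.369), Sqle at 0.94 (SE 0.38, adjusted p = 0.421) and Scd2 at 0.99 (SE 0.44, adjusted p = 0.496) on the log2 scale. Scd1 had a difference of -1.03 (SE 0.51, adjusted p = 0.559). The median over the 16 cholesterol enzymes was 0.53, with 14 above 0, and was 0.11, with 11 above 0, without basal control replicate 3. Over all tested genes the median was -0.02, with 47.9% above 0.

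Between luminal and basal cells, single genes of both pathways passed the threshold. In the fit over all 12 libraries, the share of members called was smaller than that of all tested genes in both genotypes. In knockouts, Scd1, Tm7sf2, Me1, Sc5d and Mvd were higher in luminal cells and Cyp51, Fasn and Elovl5 were lower. These were 8 of 31 members, against 40.6% of all tested genes (6044 genes, edgeR), of which 19.2% were higher and 21.4% lower. In controls, Scd1, Tm7sf2, Me1 and Fads2 were higher in luminal cells and Cyp51, Fasn and Elovl5 were lower. These were 7 of 31 members, against 33.2% of all tested genes (4942 genes, edgeR), of which 16.3% were higher and 16.8% lower. The comparisons share no library, and 6 members were called in the same direction in both, 75.0% of those called in knockouts and 85.7% of those called in controls. Over all tested genes the same shares were 63.7% in knockouts and 77.9% in controls. With the replicate block the share of members called was not smaller than that of all tested genes. There, 12 members were higher and 4 lower in knockouts, against 50.7% of all tested genes called. In controls 6 were higher and 6 lower, against 35.5%.

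Scd1 showed the largest lineage difference of the members. In knockouts it averaged 464 ± 85.4 CPM in luminal cells and 156 ± 58.6 CPM in basal cells (SD, n = 3 each), a log2 fold change of 1.57 (SE 0.37, edgeR adjusted p = 0.0057). In controls it averaged 341 ± 161 CPM in luminal cells and 56.4 ± 13.5 CPM in basal cells (SD, n = 3 each), a log2 fold change of 2.60 (SE 0.38, edgeR adjusted p = 0.000374). All 6 luminal libraries were above all 6 basal ones. Fasn went the opposite way. In knockouts it averaged 223 ± 35.5 CPM in luminal cells and 397 ± 104 CPM in basal cells (SD, n = 3 each; log2 fold change -0.83, SE 0.24, edgeR adjusted p = 0.0177). In controls it averaged 206 ± 49.8 CPM in luminal cells and 496 ± 42.4 CPM in basal cells (SD, n = 3 each; log2 fold change -1.27, SE 0.24, edgeR adjusted p = 0.00216). Fasn makes palmitate and Scd1 acts later in the route, so enzymes of the same route differed in opposite directions.

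Consecutive enzymes after lanosterol also differed in opposite directions. Cyp51 (chr5:4080674-4104697) had 95.5, 93.2 and 72.6 CPM in luminal knockouts, against 177, 121 and 140.1 CPM in basal knockouts (log2 fold change -0.74, SE 0.25, edgeR adjusted p = 0.0327). In controls it had 68.4, 125 and 66.4 CPM in luminal cells, against 197, 233 and 217 CPM in basal cells (log2 fold change -1.32, SE 0.25, edgeR adjusted p = 0.00202). Tm7sf2 (chr19:6062821-6067850), which acts next, had 11.6, 11.4 and 8.61 CPM in luminal knockouts, against 5.47, 4.84 and 3.26 CPM in basal knockouts (log2 fold change 1.21, SE 0.28, edgeR adjusted p = 0.00481). In controls it had 10.9, 8.14 and 8.55 CPM in luminal cells, against 4.04, 3.84 and 2.77 CPM in basal cells (log2 fold change 1.37, SE 0.28, edgeR adjusted p = 0.00303). Neither gene's luminal and basal libraries overlapped in either genotype. As shown above, the promoters of both held 1 CCAAT motif and neither held an exact match to TCACNCCAC, the only SREBP-type pattern searched.

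Elovl5 averaged 25.6 ± 3.78 CPM in luminal knockouts and 53.0 ± 7.02 CPM in basal knockouts (SD, n = 3 each; log2 fold change -1.05, SE 0.16, edgeR adjusted p = 0.0005). In controls it averaged 28.0 ± 2.60 CPM in luminal cells and 43.0 ± 1.49 CPM in basal cells (SD, n = 3 each; log2 fold change -0.62, SE 0.16, edgeR adjusted p = 0.0134). The Elovl5 call in controls was lost with library size alone (edgeR adjusted p = 0.0523). Me1 had a log2 fold change of 1.24 (SE 0.30, edgeR adjusted p = 0.00649) in knockouts and 1.11 (SE 0.30, edgeR adjusted p = 0.0141) in controls. The Me1 call in controls was lost without basal control replicate 1, basal control replicate 2 or luminal control replicate 3, with adjusted p of 0.0727, 0.0574 and 0.0774. That call was also lost with only the groups compared (edgeR adjusted p = 0.0623). Fads2 was called in controls with overlapping groups (log2 fold change 1.22, SE 0.42, edgeR adjusted p = 0.0431), and the value was 0.69 (adjusted p = 0.211) without luminal control replicate 2. Most fits that leave out 1 library lost this Fads2 call. Leaving out basal knockout replicate 1, which is outside the comparison, gave an edgeR adjusted p of 0.0611. The call was also lost with no filter (edgeR adjusted p = 0.055), by limma-voom (adjusted p = 0.0844) and with only the groups compared (edgeR adjusted p = 0.101). In knockouts Sc5d, a sterol desaturase, had a log2 fold change of 0.71 (SE 0.17, edgeR adjusted p = 0.00716) and Mvd one of 0.58 (SE 0.19, edgeR adjusted p = 0.0323). Leaving out single knockout libraries ended the calls of Mvd in knockouts (adjusted p up to 0.103), of Cyp51 (up to 0.116) and of Fasn (up to 0.0665).

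The other 22 members did not pass in either lineage comparison. Dhcr7 averaged 22.6 ± 4.35 CPM in luminal controls and 14.1 ± 9.22 CPM in basal controls (log2 fold change 0.68, edgeR adjusted p = 0.18), and passed without basal control replicate 3 at 1.36 (adjusted p = 0.00176). Srebf2 had a luminal over basal log2 fold change of 0.02 in knockouts and -0.02 in controls. Srebf1 had one of -0.28 in knockouts and 0.56 in controls (edgeR adjusted p = 0.0729), where all luminal libraries were above all basal ones. The groups did not overlap for 14 members in knockouts, against 54.9% of all tested genes, and for 9 in controls, against 44.1%. Control libraries of the 2 lineages with the same replicate number were taken as pairs (r = 0.308, 0.425 and 0.473 across genes). With the replicate block, fitted to the control libraries alone, 12 members were called, 6 in each direction, against 35.5% of all tested genes. The block added Srebf1 and Fads1 above, and Hmgcs1, Msmo1 and Acly below, in luminal cells.

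Salivary gland transcripts, among them Dcpp1, also separated the lineages. They summed to 18666 to 73731 CPM in luminal knockouts and 9200 to 99664 CPM in luminal controls, against 151 to 3319 CPM in basal knockouts and 827 to 3295 CPM in basal controls. The milk genes, with the luminal sums given above, reached 275 to 545 CPM in basal knockouts and 135 to 266 CPM in basal controls. Other markers differed too. In knockouts 5 of 6 fibroblast, 3 of 4 endothelial and 2 of 2 tested adipocyte markers were called lower in luminal cells, and 0 higher. Their medians were -3.36, -2.06 and -2.59 on the log2 scale. Of all tested genes 21.4% were called lower there. In controls 1 fibroblast marker was called lower and 1 higher, 1 adipocyte marker lower and 0 endothelial markers. The part of these lists in the lineage differences was not tested.

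**Figure D5:**
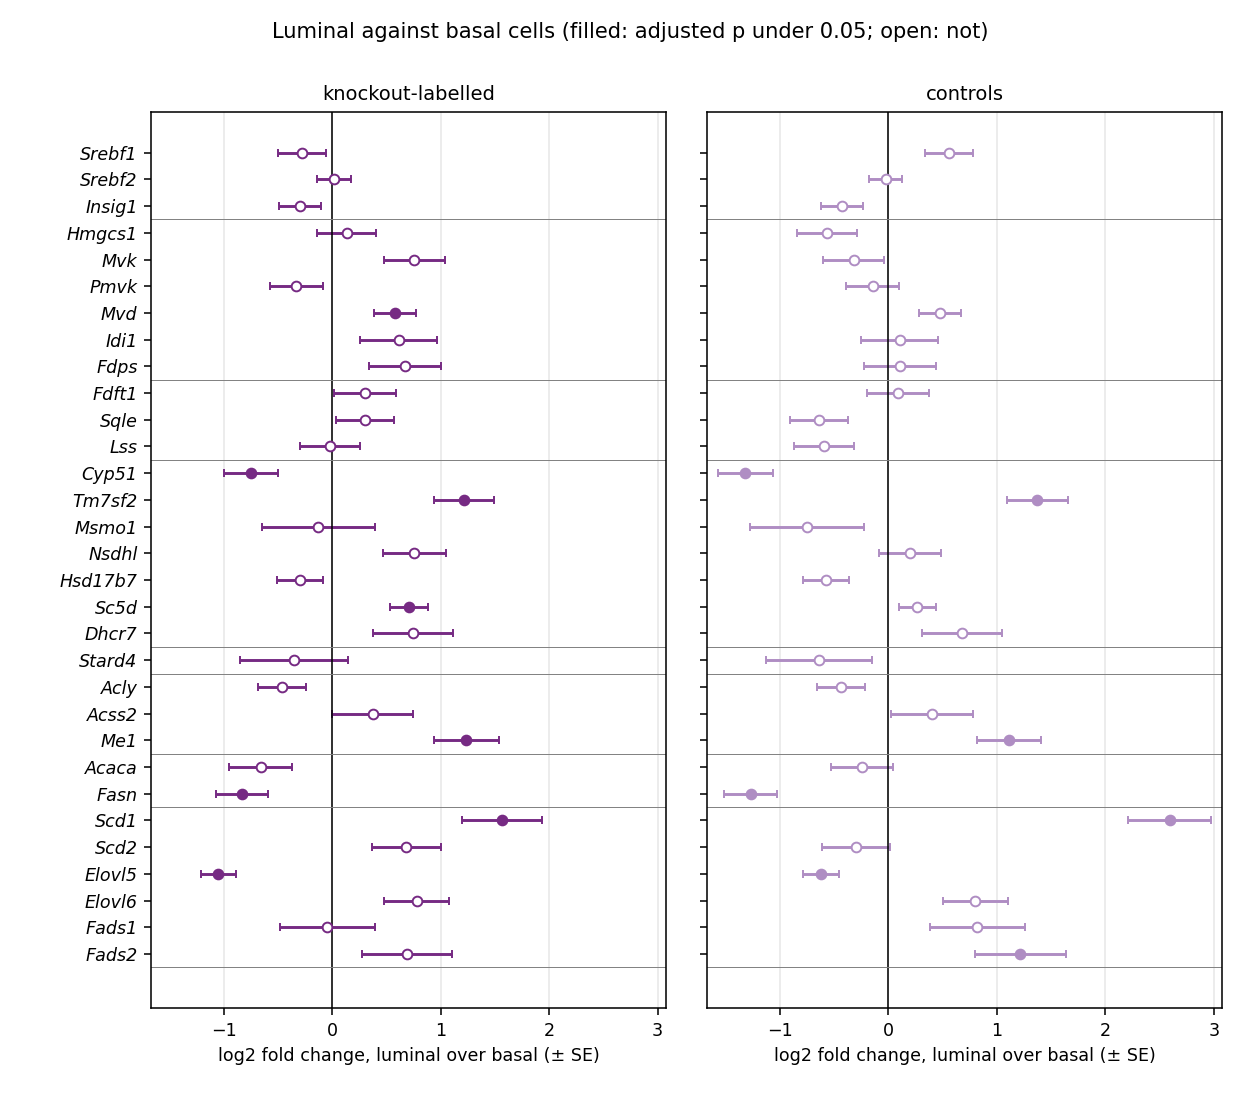
Log2 fold change of luminal over basal cells with its SE for the 31 genes in knockouts (left) and controls (right), in order of role; filled points passed an edgeR adjusted p of 0.05. Scd1, Tm7sf2 and Me1 are filled right of 0 and Cyp51, Fasn and Elovl5 filled left of 0 in both panels.

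Other genes of the same pathways were counted from lists of 19 cholesterol genes and 18 fatty acid genes, all of them tested. In luminal knockouts 1 of the 19 and 1 of the 18 rose, and 0 fell, against 3.03% of all tested genes. At an unadjusted p under 0.05 there were 5 of the 19 and 4 of the 18, against 17.2% of all tested genes. The groups did not overlap for 6 higher and 1 lower of the 19, and for 4 higher and 1 lower of the 18. Of all tested genes 25.4% did not overlap. Ebp, the sterol isomerase that acts between the lanosterol steps and Dhcr7, had 45.6, 58.3 and 62.5 CPM in luminal knockouts, against 32.0, 26.9 and 18.1 CPM in luminal controls (log2 fold change 1.11, SE 0.23, edgeR adjusted p = 0.0278). Every knockout library was above every control. Acsl4, which activates arachidonate, had 207, 245 and 170.1 CPM in luminal knockouts, against 61.4, 49.5 and 128 CPM in luminal controls (log2 fold change 1.38, SE 0.32, edgeR adjusted p = 0.0445). These alternatives were chosen for both genes after seeing the data. With the replicate block neither passed (adjusted p = 0.0519 for Ebp and 0.0965 for Acsl4). Without luminal knockout replicate 2 or 3 or luminal control replicate 2, the Ebp call was lost, with adjusted p of 0.0949, 0.103 and 0.0917, and the Acsl4 call was lost in 10 of the 12 fits that leave out 1 library. In basal knockouts 0 of these genes passed by edgeR, against 0.671% of all tested genes. There, 3 cholesterol genes and 0 fatty acid genes had an unadjusted p under 0.05, against 8.88% of all tested genes.

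Scap, which escorts the SREBPs, had a knockout over control log2 fold change of 0.12 in luminal cells and 0.02 in basal cells. Insig2, a second INSIG protein, had one of 0.72 in luminal cells (edgeR adjusted p = 0.134) and 0.54 in basal cells (edgeR adjusted p = 0.499). Thrsp, a promoter of fatty acid synthesis in lipogenic tissues, had 0.199, 0.358 and 0.40 CPM in luminal knockouts, against 2.53, 2.03 and 2.31 CPM in luminal controls (log2 fold change -2.77, SE 0.72, edgeR adjusted p = 0.0649).

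Between lineages in controls, 3 of the 19 other cholesterol genes were higher in luminal cells and 6 lower, and 7 of the 18 other fatty acid genes were higher and 3 lower. Of all tested genes 33.2% were called there, 16.3% higher and 16.8% lower. The sterol-exporting Abcg1 (log2 fold change 2.56) and the oxysterol receptors Nr1h3 (1.43) and Nr1h2 (0.49) were higher. Among those lower were Acat2 (-0.85), the ubiquitin ligase gene Mylip (-1.18), Soat1 (-1.25), which esterifies cholesterol, and Abca1 (-0.90), a cholesterol exporter. Of the fatty acid genes, Thrsp (3.54), Elovl7 (1.67), Agpat2 (1.06), Gpam (1.01), Acacb (1.01), Dgat2 (0.83) and Acsl1 (0.66) were higher on the log2 scale, of which Gpam, Agpat2 and Dgat2 build triglyceride. Elovl3 (-4.30), Acsl4 (-1.76) and Aacs (-1.29) were lower. The largest values rest on few reads: Elovl3 had 0, 0 and 1 counts in luminal controls, against 6, 12 and 9 in basal controls. Thrsp had 27, 22 and 23 counts in luminal controls, against 0, 5 and 1 in basal controls. In knockouts, 4 other cholesterol genes were higher in luminal cells, Abcg1, Ebp and Mbtps2 among them, and 4 were lower (Mylip, Abca1, Acat2 and Npc1). There, 4 other fatty acid genes were higher (Elovl7, Dgat2, Acsl5 and Gpam) and 2 lower (Aacs and Dgat1). Of all tested genes 40.6% were called there, 19.2% higher and 21.4% lower.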

How the data were processed

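Per the labels' protocols, RNA of 12 libraries was extracted with an RNeasy kit, prepared with TruSeq RNA v2 and sequenced. The submitters' processing notes name CASAVA 1.8.2, featureCounts and mm10; they do not give the aligner or the strand setting. The authors deposited read counts, not normalized, and a length for each of 27179 genes, and 0 values differed between the series table and the 12 library tables. Counts were fitted in edgeR 4.0.16 (R 4.3.3) by quasi-likelihood with robust dispersion, TMM factors, the default expression filter by group and 4 group means over all 12 libraries (8 residual degrees of freedom). Adjusted p-values are Benjamini-Hochberg values over 14903 tested genes, called under 0.05. The SE of a log2 fold change is its size over the root of F. Between replicates the common coefficient of variation was 32.6%. The labels call replicates biological; pooling of mice is not stated.

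Replicate numbers were taken as pairing where every same-numbered pair of libraries correlated above 0.1 across genes. This held for the luminal knockout comparison and for luminal against basal controls. Libraries with different numbers were not correlated, so what the numbers share was not tested. Alternatives were RLE size factors, library size alone, no filter, DESeq2 1.42.0, limma-voom (limma 3.58.1), only the groups compared, the block and leaving out each library. The block was fitted to the libraries of the groups compared, so it changed the libraries used as well as the model. The members and lists were chosen with earlier results of these data known. Per role group, the member with the lowest p in each knockout comparison is given library by library, as are further members with groups that do not overlap or a library that stands apart, chosen after their values were seen. The model was tested on simulated data. Gene positions and promoters are RefSeq, GRCm38, which is mm10. The planned rule for promoters, a called member with the SREBP-type motif, took none, and protein sequences were not used here. Of the other pathway genes, 4 are not reported here by name; they stay in the counts of their lists.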

Additional observations from a re-analysis of the deposited data

How the results depend on the processing

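Over 19 alternatives and 31 members, 2914 values were recomputed: 2832 stayed on the same side of the threshold (108 uncalled values changed sign), 48 newly passed, 34 no longer passed and 0 called values reversed. In luminal knockouts the members called numbered 3 with the replicate block, the 3 named above, and 0 to 1 when leaving out 1 library; in basal knockouts there was 1 by DESeq2. In lineage comparisons the members called numbered 12 in controls and 16 (against 50.7% of all tested genes) in knockouts with the block, and 5 to 9 and 5 to 11 when leaving out 1 library. All tested genes called in basal knockouts numbered 59 by library size alone, 417 by DESeq2, 12 with the block and 17 to 130 when leaving out 1 library. In luminal knockouts they numbered 1089 by DESeq2, 190 with only the groups compared, 1364 with the block and 130 to 687 when leaving out 1 library. For the luminal minus basal effect they numbered 354 by DESeq2, 22 by limma-voom, 106 with the block and 10 to 87 when leaving out 1 library. The cause was not tested, except that fewer libraries entered the fits with only the groups compared or with 1 left out. The block, too, was fitted to the groups compared alone. For the luminal minus basal effect these were all 12 libraries, and for every other comparison they were fewer. The block kept 399 of the 451 genes called in luminal knockouts and 10 of the 100 called in basal knockouts. In the basal comparison and between lineages in knockouts the rule for pairing was not met (lowest r = -0.087 and 0.087). Library size alone moved the median of all genes between lineages in knockouts to 0.15, in place of 0.03, and ended the Cyp51 call there (adjusted p = 0.0998). With 3 libraries a group and a common coefficient of variation of 32.6%, members that missed the threshold are not shown to be equal.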

Other observations

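Replicate 3 was the lowest of its group for 7 of the 11 fatty acid genes in each of the 4 groups. Of all tested genes, replicate 3 was the lowest for 35.2% in luminal knockouts, 39.0% in luminal controls, 39.0% in basal knockouts and 45.4% in basal controls. Low values in replicate 3 were not particular to fatty acid genes, since in luminal knockouts it was also the lowest for 12 of the 16 cholesterol enzymes. It was the lowest for 6 of the 16 in luminal controls, 8 in basal knockouts and 1 in basal controls. The median deviation of the 11 genes from the group mean in replicate 3, on the log2 scale, was -0.19 in luminal knockouts, -0.28 in luminal controls, -0.26 in basal knockouts and -0.14 in basal controls. Acss2, which makes acetyl-CoA from acetate, Acaca, Fads1 and Fads2 were lowest in replicate 3 in all 4 groups, as were 9.97% of all tested genes. Me1 was highest in replicate 3 in all 4 groups, as were 11.3% of all tested genes. Srebf1, Nsdhl, Acaca and Fads1 were highest in replicate 2 in all 4 groups, as were 8.36% of all tested genes. The labels do not say what a replicate number shares between groups, and these values were noticed after the data were seen.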
